A study of Mus musculus with 16 samples.

Results

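A set of 40 genes of the unfolded protein and amino acid stress responses was followed in cultured mouse spermatogonial stem cells after knockdown of a transcription factor. The genes were chosen by their known roles, but with earlier results of these data known. Each was represented by the probe set with the highest mean over 16 arrays, as were all 18193 genes on the array with a named probe set. Of these, 11145 genes were bright enough to be tested, 39 of the 40 members among them. The exception was Slc7a11, the cystine transporter subunit, whose intensity lay between 6.94 and 9.04 on every array.

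All cultures came from C57BL/6 mouse germ cells enriched for Thy1 and grew without serum. The medium held 20 ng/ml GDNF, 150 ng/ml GFRA1 and 1 ng/ml FGF2, the growth factors that keep these stem cells dividing. RNA was taken after 30 h with a short interfering RNA (siRNA). The cells of 4 groups, with 4 arrays each, received a negative control siRNA or an siRNA against Etv5, Bcl6b or Pou3f1, transcription factor genes linked to GDNF signalling in these cells. The knockdowns were transient and the targets were not deleted, so residual target RNA limits the model. Nothing in the labels says that the 4 samples of a group came from separate cultures. The p-values therefore measure the spread between these samples, which may be technical.

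Proteins that enter the endoplasmic reticulum (ER) are folded there by chaperones and disulfide isomerases, and those that fail are returned to the cytosol for destruction, a route called ER-associated degradation (ERAD). The sensors IRE1 (encoded by Ern1), PERK (Eif2ak3) and ATF6 detect unfolded protein. IRE1 splices Xbp1 mRNA, ATF6 and XBP1 raise chaperone and ERAD genes, and PERK phosphorylates eIF2 alpha, which favours translation of ATF4. ATF4 is also raised when amino acids run short, and it induces genes of amino acid synthesis and uptake together with stress regulators such as Ddit3 and Trib3.

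Both branches have a known sequence in their target promoters, and these are shown because they set the chaperone members beside the ATF4 targets without use of the expression values. The windows are RefSeq sequences of build GRCm38.p6, 300 bases each, from 250 bases before to 50 bases after a start site, and 36 of the 40 members had one. Both strands were searched. The ER stress response element (CCAAT, then 9 bases, then CCACG) was found in 8 of the 36 members, 22.2%, and in 37 of all 27025 genes with a window, 0.137%. The 8 were Hspa5, Hsp90b1, Calr, Canx, Creld2, Dnajc3, Pdia6 and Syvn1, all chaperone or ERAD genes. Element II (ATTGG, 1 base, CCACG) was found in Herpud1 and Dnajb11 and in 0.0444% of all genes. The amino acid response core TGATGNAA was found in Asns, Atf3, Chac1, Slc7a11, Trib3 and Herpud1 and in 4.51% of all genes. The XBP1 core TGACGTGG was found in no member and in 0.714% of all genes, which says only that these letters are not in the windows. No matches overlapped in a member's window. A match of letters is a description and not a measured binding site.

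The elements below belong to the chaperone Hspa5, to Calr, Pdia6 and Syvn1, which changed in at least 1 knockdown, and to Herpud1, which holds a match of each branch. Each is written 5′ to 3′ on the strand that holds the element, which is in capitals with its spacer.
Hspa5: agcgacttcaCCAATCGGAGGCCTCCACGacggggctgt
Calr: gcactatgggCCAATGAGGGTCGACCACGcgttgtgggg
Pdia6: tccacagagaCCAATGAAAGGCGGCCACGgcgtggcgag
Syvn1: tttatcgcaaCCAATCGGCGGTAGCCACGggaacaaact
Herpud1 element II: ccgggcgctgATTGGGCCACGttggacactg
Herpud1 amino acid response core: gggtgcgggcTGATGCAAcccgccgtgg
The first lies at chr2:34772015-34772053 on the plus strand, with its element beginning 65 bases before the start site of Hspa5. The Calr sequence lies at chr8:84847065-84847103 on the plus strand, opposite to the gene, and the far end of its element is 162 bases upstream. The Pdia6 sequence lies at chr12:17266481-17266519 on the plus strand, 98 bases upstream, and that of Syvn1 at chr19:6046522-6046560 on the plus strand, 44 bases upstream. Those of Herpud1 lie at chr8:94386367-94386397 on the plus strand and at chr8:94386307-94386334 on the minus strand.

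The amino acid response cores of 3 ATF4 targets are set beside these. Asns changed in Bcl6b knockdown, and Chac1 and Atf3 passed no test.
Asns: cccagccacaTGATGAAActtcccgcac
Chac1: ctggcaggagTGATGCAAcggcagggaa
Atf3: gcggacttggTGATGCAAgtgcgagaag
They lie at chr6:7693215-7693242 on the minus strand, chr2:119351039-119351066 on the minus strand and chr1:191183426-191183453 on the plus strand. Capitals mark the core, whose sixth base was free in the search.

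The siRNA acted on its target in each group, and 1 array stood apart. Etv5 intensity was 2882 to 3072 on the control arrays and 898 to 912 on 3 Etv5 knockdown arrays, with 1676 on replicate 3. Bcl6b intensity was 1341 to 1526 in control and 611 to 791 in its knockdown. It was also low in Etv5 knockdown, at 608 to 899, so the RNA of both genes was low in that group. Pou3f1 was 644 to 692 in control and 354 to 519 in its knockdown. On Bcl6b knockdown replicate 1 the Actb control probe sets at the 3′ end exceeded those at the 5′ end by 3.08 on the log2 scale, against 0.62 to 0.76 on the other 15 arrays. Its correlation with the others averaged 0.975, against at least 0.996 for the rest. All values below leave this array out, so that Bcl6b knockdown has 3 arrays, and its effect on the members is given near the end. Median intensity was 15.6 to 17.1 on all arrays. It was 16.6 to 17.1 on the 3 Bcl6b knockdown arrays used, above the 15.6 to 16.3 of the control arrays. The number of arrays limits the precision.

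Differences are on the log2(intensity + 1) scale, which understates the change of dim genes, and were tested with limma across all tested genes. A gene is called when its Benjamini-Hochberg adjusted p is under 0.05. All knockdowns are set against the same 4 control arrays, so an effect of the control siRNA and a change seen in every knockdown cannot be told apart. Fewer cells of a type and less RNA per cell cannot be told apart either. Intensities of different probe sets are not comparable as levels.

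As a group the members moved little. In Etv5 knockdown 5 of 39 members were called, 12.8%, where 9.52% of all tested genes were called. In Bcl6b knockdown it was 7 members, 17.9% against 10.9%, and in Pou3f1 knockdown 5 members, 12.8% against 11.4%. Ern1 was the only member called higher, in each knockdown, where 4.58%, 4.07% and 4.3% of all genes were called higher. The others were lower, 4, 6 and 4 members or 10.3%, 15.4% and 10.3%, where 4.94%, 6.87% and 7.08% of all genes were called lower. Arrays of knockdown and control did not overlap for 8 members in Etv5 knockdown, 20.5% beside 17.3% of all genes, and for 13 in Bcl6b knockdown, 33.3% beside 27.4%. In Pou3f1 knockdown it was 13, 33.3% beside 18.1%. The shares called in either direction lie near those of all genes and are not a result about the group. The shares called lower were above those of all genes but rest on 4, 6 and 4 members. Neither that difference nor the one in the shares without overlap was tested.

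The median difference over all 39 members was -0.056 in Etv5, -0.0585 in Bcl6b and -0.0333 in Pou3f1 knockdown, beside -0.0262, -0.0424 and -0.0243 over all genes. The 19 chaperone and ERAD genes had medians of -0.0623, -0.0438 and -0.0319 in the same order. The 15 tested ATF4 targets had -0.0312, -0.112 and -0.0686. Within the ATF4 targets the 7 stress regulators had 0.0804 in Etv5 knockdown but -0.196 in Bcl6b and -0.125 in Pou3f1 knockdown. On single arrays their mean difference from the control mean ran from -0.117 to 0.0934 in control itself. It ran from -0.139 to 0.15 in Etv5 and from -0.133 to 0.0692 in Pou3f1 knockdown, both overlapping with control. The 3 Bcl6b knockdown arrays, at -0.319 to -0.183, lay below all control arrays. The 8 amino acid supply genes had medians of -0.0978, -0.0895 and -0.0515. No list thus moved by as much as 0.2 at its median.

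Precision allowed a bound on most members. The 95% confidence interval of the difference lay within 1.5-fold of control for 38 of 39 members in Etv5 knockdown, 37 in Bcl6b knockdown and 38 in Pou3f1 knockdown. Ddit4 was the exception each time, joined by Sesn2 in Bcl6b knockdown. Within 1.25-fold lay 31, 34 and 32 members. The median residual SD was 0.0687 over the members and 0.0841 over all tested genes.

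**Figure D1:**
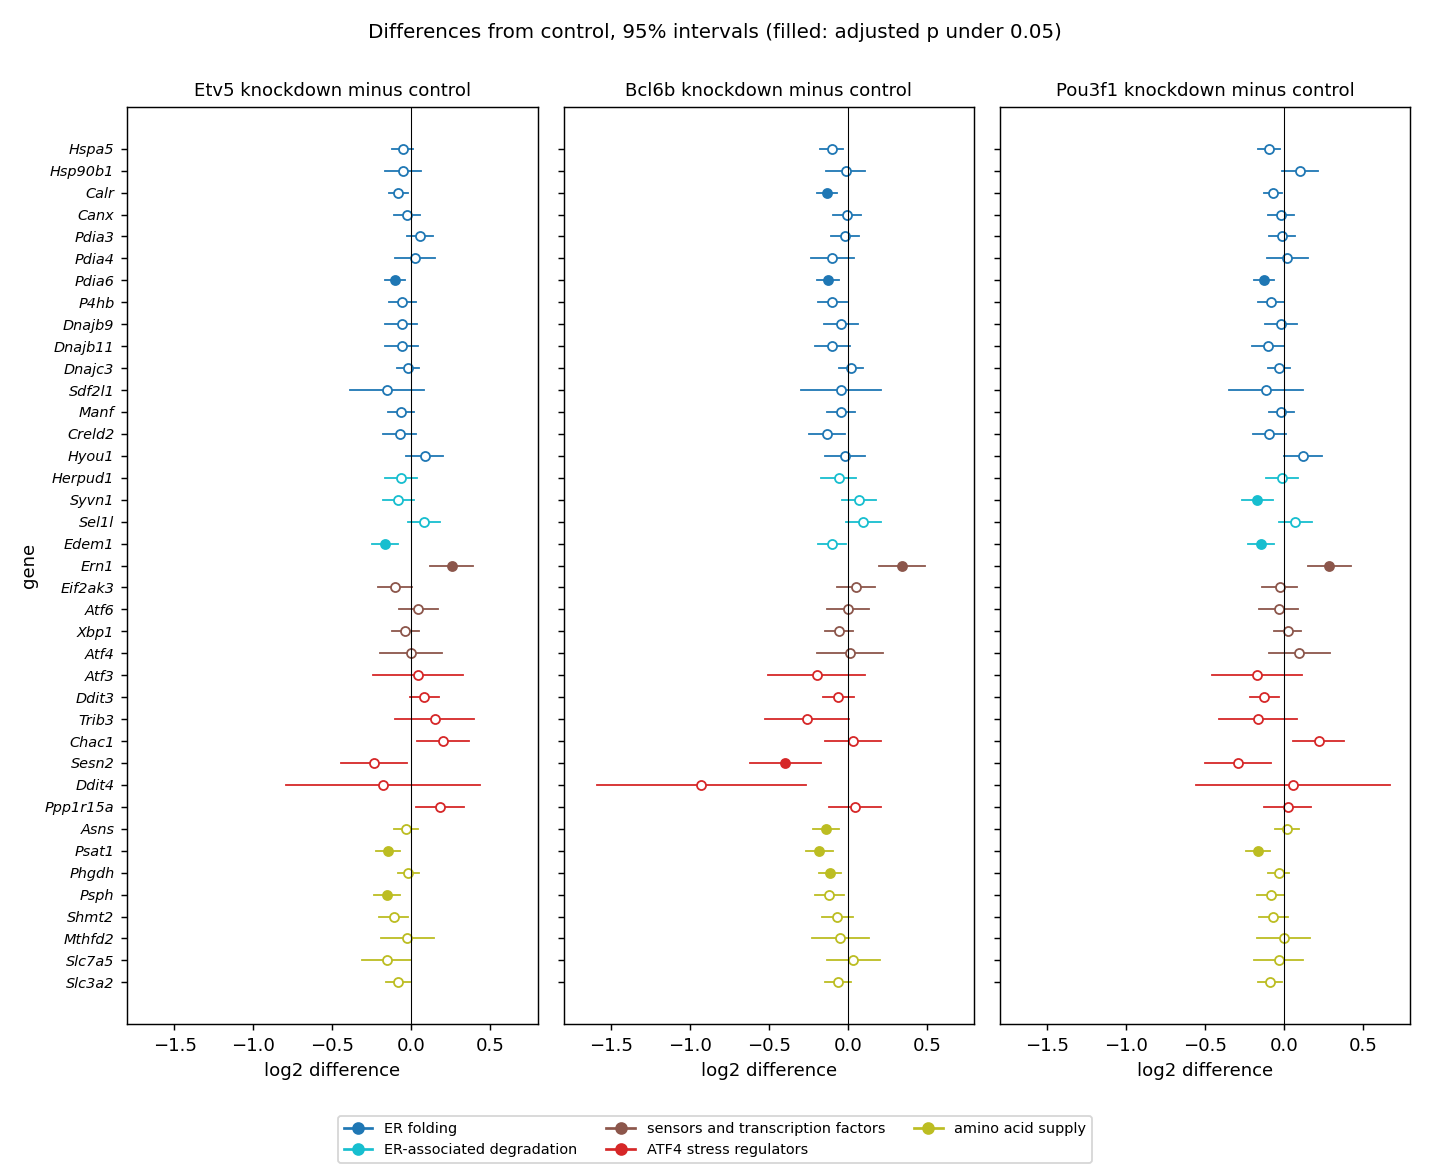
Log2 difference from control (x axis) of each of the 39 tested members (y axis, by role) in the 3 knockdowns, with 95% confidence intervals from limma, and filled points for adjusted p under 0.05. Most points sit within 0.2 of 0, Ern1 lies to the right in every panel, and Ddit4 has by far the widest intervals.

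Of the 15 ER folding genes, Pdia6 fell in all 3 knockdowns, Calr fell in Bcl6b knockdown, and no other passed the test. The shares called, 6.67% in Etv5, 13.3% in Bcl6b and 6.67% in Pou3f1 knockdown, stand beside 9.52%, 10.9% and 11.4% of all genes. They are near the background and are not a result about these genes as a list. Pdia6, a disulfide isomerase that also damps IRE1 signalling, had intensities of 4599, 4599, 4855 and 4653 on the control arrays. It had 4350, 4265, 4392 and 4417 in Etv5 knockdown, 4236, 4240 and 4388 in Bcl6b knockdown, and 4327, 4312, 4353 and 4121 in Pou3f1 knockdown. Every knockdown array lay below every control array. Arrays did not overlap with control for 17.3% of all genes in Etv5, 27.4% in Bcl6b and 18.1% in Pou3f1 knockdown. These comparisons share their control arrays, and the share of all genes separated in all 3 is not given here. Pdia6 fell by 6.85% in Etv5 knockdown (log2 difference -0.10 ± 0.030 SE, limma adjusted p = 0.0387). In Bcl6b knockdown it fell by 8.29% (-0.12 ± 0.0324, adjusted p = 0.0193), and in Pou3f1 knockdown it fell by 8.52% (-0.13 ± 0.030, adjusted p = 0.0093).

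The call of Pdia6 in Etv5 knockdown was thin: it was lost when any of the 8 arrays compared was left out, with adjusted p of 0.0512 to 0.125. It was also lost with median centring, without the filter on dim genes and without the intensity trend (adjusted p = 0.0915, 0.0513 and 0.0754). In Bcl6b knockdown it was lost without Bcl6b knockdown replicate 2, Bcl6b knockdown replicate 3 or control replicate 3 (adjusted p = 0.0866, 0.0666 and 0.0606). In Pou3f1 knockdown it held in all 15 fits that left out an array. With the mean over probe sets Pdia6 had -0.13, -0.24 and -0.21 in Etv5, Bcl6b and Pou3f1 knockdown and was not called in any (adjusted p = 0.45, 0.16 and 0.19).

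Calr encodes calreticulin, the lectin chaperone that retains calcium in the ER. Its intensities were 18080, 18380, 18110 and 19070 in control and 16350, 17320 and 16790 in Bcl6b knockdown, without overlap. Calr fell by 8.65% there (-0.13 ± 0.030, adjusted p = 0.00957), a call lost without Bcl6b knockdown replicate 2 (adjusted p = 0.0681). The values in Etv5 and Pou3f1 knockdown were -0.0819 and -0.0718, with adjusted p of 0.0711 and 0.104, and their arrays also lay below all control arrays. The other 2 Calr probe sets gave -0.0755 and -0.0861 in Bcl6b knockdown and were not called.

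Hspa5 encodes BiP, the main Hsp70 chaperone of the ER and the usual reporter of the unfolded protein response. It had 18210, 18870, 18070 and 19070 in control and a mean of 17850 ± 230 (SD, n = 4) in Etv5 knockdown. The means were 17300 ± 227 (SD, n = 3) in Bcl6b and 17370 ± 807 (SD, n = 4) in Pou3f1 knockdown. Hspa5 was not called in any knockdown: the differences were -0.056, -0.10 and -0.0964, with adjusted p of 0.3, 0.0702 and 0.0604. The interval in Bcl6b knockdown ran from -0.174 to -0.0279, so a rise of Hspa5 on this probe set lay outside it. It was called lower there with median centring (-0.18), the mean over probe sets, array weights, only the 2 groups compared or without Pou3f1 knockdown replicate 4 (adjusted p = 0.00888, 0.0458, 0.014, 0.0354 and 0.0166). In Pou3f1 knockdown Hspa5 was called lower without Pou3f1 knockdown replicate 1 (-0.11, adjusted p = 0.0386). A second bright Hspa5 probe set, with a control mean of 11900, gave -0.055, -0.027 and 0.01. A dimmer one, with a control mean of 271, gave 0.0521, -0.19 and -0.003. Neither was called, and the brighter had an adjusted p of 0.758 in Bcl6b knockdown in a fit of all probe sets.

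Hsp90b1 encodes the ER Hsp90 chaperone. It differed from control by -0.053, -0.0113 and 0.0977, and its high mean in Pou3f1 knockdown came with 1 array at 28470 against 22770 to 23390 on the other 3. Canx, the membrane-bound relative of calreticulin, differed by -0.0296, -0.00399 and -0.0229. A second Canx probe set gave 0.18 in Bcl6b knockdown (adjusted p = 0.0499 in a fit of all probe sets), so the 2 probe sets disagreed. Among the other isomerases, Pdia3 differed by 0.0566, -0.0148 and -0.0149, Pdia4 by 0.0219, -0.097 and 0.0198, and P4hb by -0.0563, -0.0974 and -0.0831, none of them called.

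The co-chaperones of the DnaJ family, which drive the cycle of BiP, were not called either. Dnajb9, a target of XBP1, differed by -0.0624, -0.0438 and -0.0222. Dnajb11 differed by -0.0624, -0.097 and -0.10, and Dnajc3 by -0.0225, 0.0208 and -0.0319. The arrays of Dnajb11 in Pou3f1 knockdown, 1473 to 1596, lay just below those of control, 1599 to 1760.

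Of the remaining folding genes, Creld2, a secreted protein raised by ER stress, came nearest to a call, with -0.13 in Bcl6b knockdown and an adjusted p of 0.122. It was called lower there with median centring (-0.21), array weights, only the 2 groups compared or without Pou3f1 knockdown replicate 4 (adjusted p = 0.0186, 0.0446, 0.0366 and 0.044). The secreted ER stress factor Manf differed by -0.0654, -0.0438 and -0.0182, and Hyou1, an exchange factor for BiP, by 0.0845, -0.0155 and 0.12. Sdf2l1, a partner of the DnaJ proteins, was dim, with 37.4 to 47.1 on the control arrays, and its intervals were the widest among the folding genes, as in Etv5 knockdown from -0.388 to 0.0806.

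The values can be set beside the promoter matches. The 8 chaperone and ERAD members with it had medians of -0.0646, -0.0561 and -0.0837 in Etv5, Bcl6b and Pou3f1 knockdown. The 9 with a window and no such element had -0.0624, -0.0585 and -0.0222. The difference between these sets was not tested.

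Of the 4 ERAD genes, Edem1 and Syvn1 changed. The shares called were 25% in Etv5, 0% in Bcl6b and 50% in Pou3f1 knockdown, beside 9.52%, 10.9% and 11.4% of all genes. They rest on at most 2 genes. Edem1 encodes a lectin that hands misfolded glycoproteins to the degradation machinery. Its intensities were 1959, 1853, 1947 and 1930 in control, 1693, 1847, 1651 and 1656 in Etv5 knockdown, and 1740, 1707, 1737 and 1754 in Pou3f1 knockdown. All 8 knockdown arrays lay below control, though Etv5 knockdown replicate 2 only by a little. Edem1 fell by 11% in Etv5 knockdown (-0.17 ± 0.0386, adjusted p = 0.00922), in all 15 fits that left out an array. It fell by 9.76% in Pou3f1 knockdown (-0.15 ± 0.0386, adjusted p = 0.0181), a call lost without control replicate 1 or 3 or Pou3f1 knockdown replicate 2 (adjusted p = 0.057, 0.0532 and 0.0508). In Bcl6b knockdown the difference was -0.10 (adjusted p = 0.127). A second, dimmer Edem1 probe set gave -0.0156, 0.00462 and -0.047 and was not called, so the fall rests on 1 probe set. With the mean over probe sets both calls were lost (-0.0922 and -0.0976, adjusted p = 0.0779 and 0.0588).

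Syvn1 encodes HRD1, the ubiquitin ligase of ERAD. Its intensities were 1364, 1305, 1341 and 1318 in control and 1148, 1167, 1139 and 1288 in Pou3f1 knockdown, where it fell by 11.1% (-0.17 ± 0.047, adjusted p = 0.0261). In Bcl6b knockdown it had 1461, 1416 and 1323, with 2 of the 3 above the control range, and a difference of 0.0711 (adjusted p = 0.4). The fall in Pou3f1 knockdown was lost without control replicate 1 or 3 or Pou3f1 knockdown replicate 1, 2 or 3, with adjusted p of 0.0572 to 0.0805, and with quantile normalization (0.0543). Sel1l, the partner of HRD1, differed by 0.0804, 0.0993 and 0.0702, and Herpud1, a membrane protein of the same complex, by -0.0652, -0.0585 and -0.0153. Neither was called.

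Among the sensors and their transcription factors, Ern1 rose in every knockdown and the other 4 passed no test. This single gene is 20% of the list in each knockdown, beside 9.52%, 10.9% and 11.4% of all genes called. Ern1 encodes IRE1 alpha, the kinase and endoribonuclease that splices Xbp1 mRNA. Its intensities were 380.4, 404.3, 425.8 and 426.3 in control. They were 484.8, 529.1, 474.3 and 465 in Etv5 knockdown, 495.1, 551.4 and 510.5 in Bcl6b knockdown, and 490.8, 477.1, 467.2 and 565.5 in Pou3f1 knockdown. Each of the 11 knockdown arrays lay above every control array. Taken singly, the 3 comparisons with these shared control arrays had no overlap for 17.3%, 27.4% and 18.1% of all genes. Ern1 was 19.3% higher in Etv5 knockdown (0.25 ± 0.0647, adjusted p = 0.0179), 26.8% higher in Bcl6b knockdown (0.34 ± 0.0699, adjusted p = 0.00425) and 22% higher in Pou3f1 knockdown (0.29 ± 0.0647, adjusted p = 0.0074).

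The rise of Ern1 in Bcl6b and in Pou3f1 knockdown held in all 15 fits that left out an array, and in Etv5 knockdown in 13. There it was lost without Etv5 knockdown replicate 2 (adjusted p = 0.0606) or control replicate 1 (adjusted p = 0.07). The gene's other 2 tested probe sets were dim, with control means of 57.4 and 26.6. They gave 0.20 and 0.19 in Etv5, 0.0407 and 0.75 in Bcl6b, and 0.12 and 0.11 in Pou3f1 knockdown, all above 0 but called only for the 0.75 (adjusted p = 0.0305 in a fit of all probe sets). With the mean over probe sets in place of the brightest, the calls in Etv5 and Pou3f1 knockdown were lost (differences of 0.13 and 0.11, adjusted p = 0.18 and 0.248).

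Xbp1, whose mRNA level but not its splicing was measured here, differed by -0.0379, -0.0567 and 0.0221. In Etv5 knockdown 2 other probe sets of Xbp1 gave -0.12 and -0.20 and were called in a fit of all probe sets (adjusted p = 0.0487 and 0.0234), so the probe sets disagreed in size. Atf6 differed by 0.0436, 0.00175 and -0.0354. Eif2ak3, which encodes PERK, differed by -0.10, 0.0522 and -0.0284. In Etv5 knockdown its 4 arrays, 930.2 to 1023, lay below the control arrays, 1040 to 1108, with an adjusted p of 0.234.

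Atf4 encodes the transcription factor that the eIF2 alpha kinases raise mainly through translation. Its intensities were 2070, 1869, 1961 and 1850 in control and 1800, 1812, 2116 and 2646 in Pou3f1 knockdown, with replicate 4 far above the rest. The differences were -0.00178, 0.0143 and 0.0949. A second probe set of Atf4 gave 0.0194, -0.10 and -0.0923, and neither was called.

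**Figure D2:**
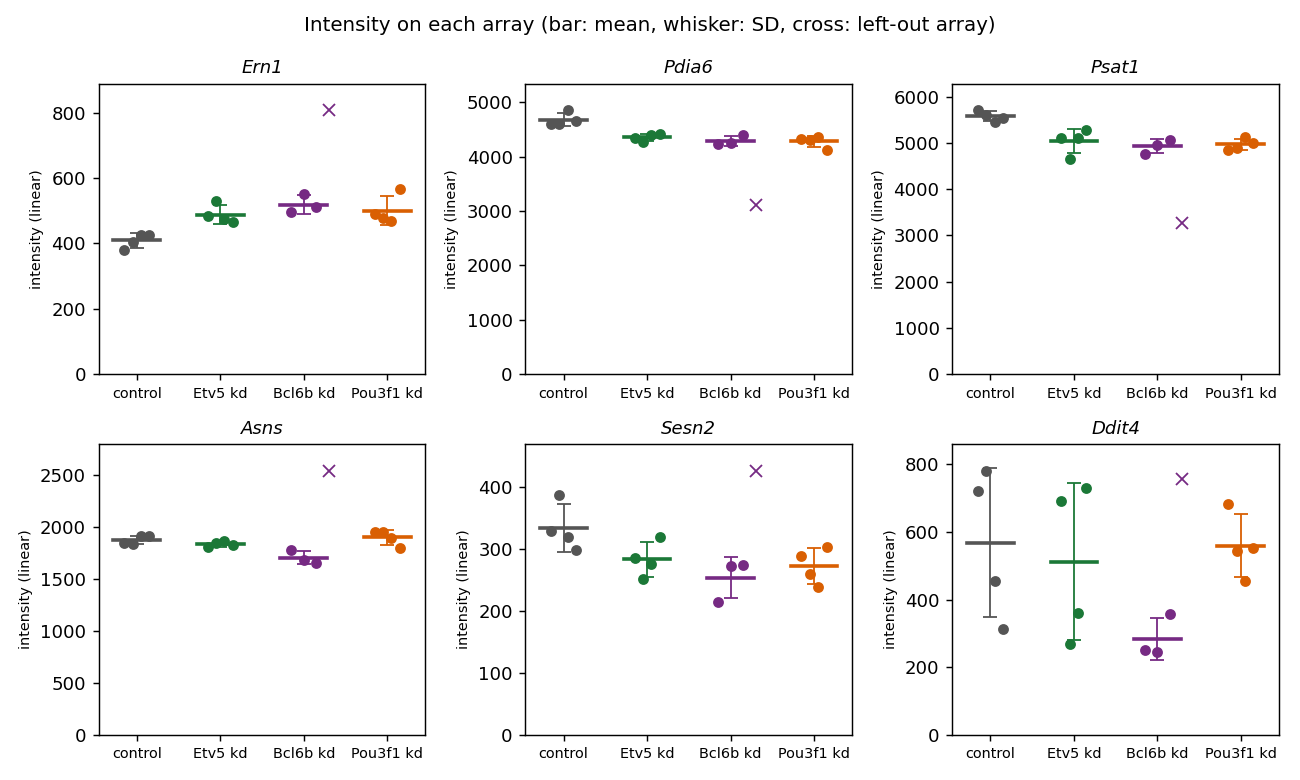
Linear intensity (y axis) of 6 members on each array of the 4 groups (x axis); points are arrays, bars the mean, whiskers the SD, and the cross is Bcl6b knockdown replicate 1, which the means leave out. Ern1 is higher and Pdia6 and Psat1 are lower on every knockdown array than on any control array. The arrays of Ddit4 spread widely within groups. Without the crossed array, 17.3%, 27.4% and 18.1% of all genes did not overlap with control in Etv5, Bcl6b and Pou3f1 knockdown.

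Of the 7 ATF4 stress regulators Sesn2 was the only one called, in Bcl6b knockdown. That is 14.3% beside 10.9% of all genes, a share near the background. Sesn2 encodes sestrin 2, an ATF4 target that restrains mTORC1. Its intensities were 330, 387.6, 319.8 and 297.8 in control and 215.3, 272 and 273.8 in Bcl6b knockdown, without overlap. Sesn2 fell by 24% there (-0.40 ± 0.107, adjusted p = 0.024). The call was lost without Bcl6b knockdown replicate 2 (adjusted p = 0.17), control replicate 1 or 2 (adjusted p = 0.0501 and 0.0763) or the filter on dim genes (adjusted p = 0.0511). In Etv5 and Pou3f1 knockdown Sesn2 differed by -0.23 and -0.29 and was not called (adjusted p = 0.15 and 0.0678). It was called lower in Pou3f1 knockdown with array weights or without Bcl6b knockdown replicate 2 or Pou3f1 knockdown replicate 4 (adjusted p = 0.0165, 0.0468 and 0.0463).

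Ddit4 encodes REDD1, an inhibitor of mTORC1 that also answers to hypoxia and glucocorticoids. It had the largest residual SD of the members, 0.521 on the log2 scale, with 721.8, 780.9, 456.3 and 313.5 in control. In Etv5 knockdown it had 691, 268.8, 360.3 and 730.4, and in Bcl6b knockdown 250.9, 244.2 and 356.4. Pou3f1 knockdown arrays had 682, 543.6, 456.2 and 552.9. The 3 Bcl6b knockdown arrays were low, but 1 of them lay above the lowest control array. The difference of -0.93 ± 0.316 in Bcl6b knockdown was not called (adjusted p = 0.0668, interval from -1.59 to -0.265). It was called lower there with median centring, array weights, only the 2 groups compared, or without Etv5 knockdown replicate 2 or control replicate 4 (adjusted p = 0.027, 0.0351, 0.0384, 0.0358 and 0.0243).

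Ddit3, which encodes the pro-apoptotic factor CHOP, had 1442, 1447, 1420 and 1461 in control. It had 1461, 1439, 1607 and 1601 in Etv5 knockdown and 1380, 1360, 1282 and 1271 in Pou3f1 knockdown. The Pou3f1 knockdown arrays lay below all control arrays, while those of Etv5 knockdown overlapped with control, and neither difference from control was called (0.0804 and -0.13, adjusted p = 0.266 and 0.0704). Without Pou3f1 knockdown replicate 1 Ddit3 was called lower in Pou3f1 knockdown (-0.15, adjusted p = 0.0473). In Bcl6b knockdown the difference was -0.0607.

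Trib3, a pseudokinase that feeds back on ATF4, was dim and differed by 0.15, -0.26 and -0.17. A second, dimmer Trib3 probe set gave 0.26, 0.0431 and 0.16 and was not called, so the sign differed in Bcl6b and Pou3f1 knockdown. Chac1, which degrades glutathione, differed by 0.20, 0.0329 and 0.22, and its arrays in Etv5 knockdown (109.6 to 131.1) and Pou3f1 knockdown (108.8 to 131.7) lay above control (98.1 to 104.3). Its adjusted p was 0.118 in Etv5 and 0.0802 in Pou3f1 knockdown. Atf3, a repressor induced by many stresses, was near the lower end of the signal, at 35.2 to 46.4 in control, and differed by 0.0404, -0.20 and -0.17. Ppp1r15a encodes GADD34, which returns eIF2 alpha to its unphosphorylated state, and differed by 0.18, 0.0462 and 0.0225. None of these 4 genes was called, though Chac1 was called higher in Etv5 knockdown with array weights (adjusted p = 0.0402) and Trib3 lower in Bcl6b knockdown with only the 2 groups compared (adjusted p = 0.0256).

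Of the 8 tested amino acid supply genes, 2 fell in Etv5, 3 in Bcl6b and 1 in Pou3f1 knockdown, and none rose. These shares, 25%, 37.5% and 12.5%, stand beside 4.94%, 6.87% and 7.08% of all genes called lower. They rest on at most 3 genes, and the difference was not tested. In all, 4 of the 8 fell in at least 1 knockdown, where 14.4% of all genes did. Psat1, an aminotransferase of serine synthesis, had 5715, 5612, 5450 and 5551 in control. It had 5102, 4664, 5105 and 5280 in Etv5 knockdown, 4762, 4957 and 5064 in Bcl6b knockdown, and 4858, 4900, 5130 and 5012 in Pou3f1 knockdown. All 11 knockdown arrays lay below all control arrays, beside 17.3%, 27.4% and 18.1% of all genes without overlap in the single comparisons. Psat1 fell by 9.82% in Etv5 knockdown (-0.15 ± 0.0368, adjusted p = 0.015) and fell by 11.7% in Bcl6b knockdown (-0.18 ± 0.0397, adjusted p = 0.00714). It fell by 10.9% in Pou3f1 knockdown (-0.17 ± 0.0368, adjusted p = 0.00649).

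The call of Psat1 was lost without control replicate 1 in Etv5 knockdown (adjusted p = 0.0529) and without Bcl6b knockdown replicate 2 in Bcl6b knockdown (adjusted p = 0.0538), and held in all 15 such fits in Pou3f1 knockdown. A second Psat1 probe set, with a control mean of 3830, gave -0.0622, 0.0179 and 0.0151 and was not called. The fall of Psat1 therefore rests on 1 of its 2 probe sets. With their mean it had -0.11, -0.0811 and -0.0755, and no call was kept (adjusted p = 0.0848, 0.192 and 0.208). With median centring the call in Etv5 knockdown was lost (adjusted p = 0.0552).

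Phgdh encodes the first enzyme of serine synthesis. It had 9089, 9282, 8927 and 8948 in control and 8300, 8612 and 8246 in Bcl6b knockdown, where it fell by 7.46% (-0.11 ± 0.0342, adjusted p = 0.043). This call held in 6 of 15 fits that left out an array. It was lost without any control array, without Bcl6b knockdown replicate 2 or 4, Etv5 knockdown replicate 1 or Pou3f1 knockdown replicate 2 or 3, with adjusted p of 0.0522 to 0.151. It was also lost with quantile normalization, without the intensity trend and without the filter on dim genes (adjusted p = 0.0583, 0.0917 and 0.0757). The other 3 Phgdh probe sets gave -0.25, -0.12 and -0.0828, the first called (adjusted p = 0.0226 in a fit of all probe sets). In Etv5 and Pou3f1 knockdown Phgdh differed by -0.019 and -0.0345.

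Psph encodes the phosphatase of the last step. Its intensities were 1938, 1842, 1946 and 1847 in control and 1797, 1687, 1758 and 1574 in Etv5 knockdown, where it fell by 10.1% (-0.15 ± 0.0398, adjusted p = 0.0201). The call was lost without Etv5 knockdown replicate 4 or control replicate 1 or 3 (adjusted p = 0.0647, 0.067 and 0.0656), and with only the 2 groups compared (adjusted p = 0.0549). In Bcl6b and Pou3f1 knockdown the arrays also lay below control, with differences of -0.12 and -0.0852 that were not called (adjusted p = 0.0908 and 0.179). The former was called with median centring or array weights (adjusted p = 0.0097 and 0.048).

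Asns, asparagine synthetase, had 1847, 1831, 1912 and 1905 in control and 1774, 1681 and 1651 in Bcl6b knockdown. Asns fell by 9.19% there (-0.14 ± 0.039, adjusted p = 0.0287) and differed by -0.0312 in Etv5 and 0.0169 in Pou3f1 knockdown. The call was lost without Bcl6b knockdown replicate 3 or 4 or control replicate 3 or 4, with adjusted p of 0.0713 to 0.123, and with quantile normalization or the mean over probe sets (0.0528 and 0.0539). A second Asns probe set gave -0.12 in Bcl6b knockdown and was not called (adjusted p = 0.221).

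The 4 other tested supply genes passed no test. Shmt2 and Mthfd2, enzymes of the mitochondrial folate pathway that uses serine, differed by -0.11, -0.0673 and -0.0686, and by -0.0267, -0.0468 and -0.00363. Slc7a5, the large neutral amino acid transporter, differed by -0.16, 0.0357 and -0.0333. Its heavy chain Slc3a2 differed by -0.0835, -0.0612 and -0.0878, with adjusted p of 0.151, 0.331 and 0.119.

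**Figure D3:**
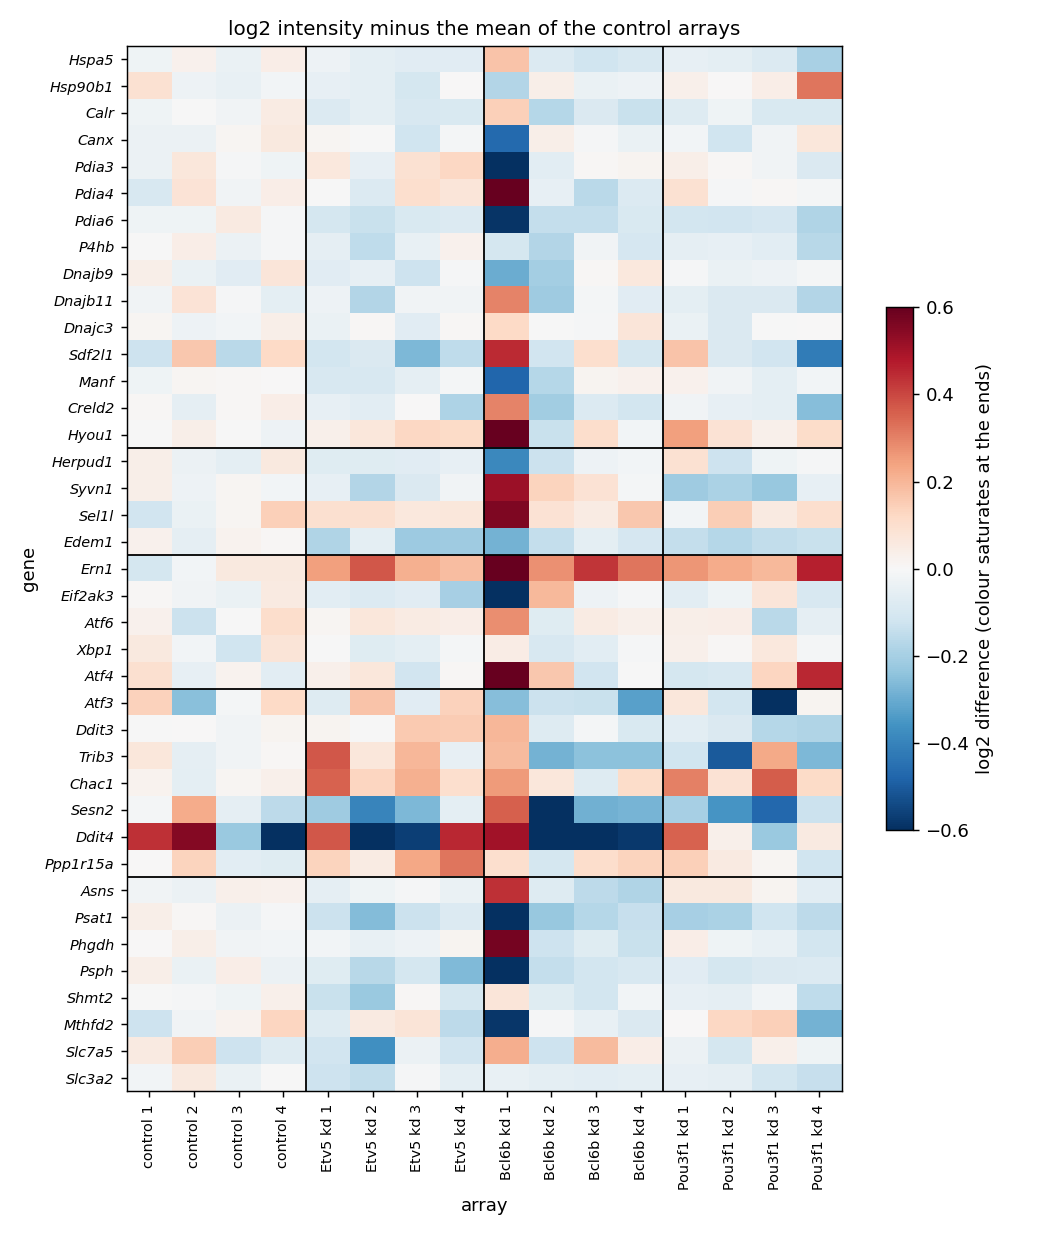
Log2 intensity of the 39 tested members (rows, by role) on each of the 16 arrays (columns), as a difference from the mean of the control arrays; blue is lower and red higher, with colour saturating at 0.6 in each direction. Bcl6b knockdown replicate 1 is the column that stands apart, and Ddit4 and Sesn2 are the bluest in the other Bcl6b knockdown columns.

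Direct tests between knockdowns found few differences among members. Between Etv5 and Bcl6b knockdown limma called none of 39, where 4.5% of all genes were called. At an unadjusted p under 0.05 it was 8 members, 20.5% beside 17.4% of all genes. Limma with array weights called 4 members, where it called 9.19% of all genes. Between Etv5 and Pou3f1 knockdown, Ddit3 was the only member called (6.36% of all genes). Its mean was 1527 ± 89.7 (SD, n = 4) in Etv5 and 1323 ± 54.7 (SD, n = 4) in Pou3f1 knockdown, 15.3% higher in the former (0.21 ± 0.0434, adjusted p = 0.00684). The call was lost with all 16 arrays, with the mean over probe sets (0.17) and with only these 2 groups in the fit (adjusted p = 0.186, 0.102 and 0.0601), and held in all 15 fits that left out an array. The arrays did not overlap, as for 10.2% of all genes.

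Between Bcl6b and Pou3f1 knockdown 2 members were called, 5.13%, where 5.11% of all genes were called. Syvn1 was 18.1% higher in Bcl6b knockdown (0.24 ± 0.0508, adjusted p = 0.0074), with 1323 to 1461 against 1139 to 1288. That call was lost with median centring or without Bcl6b knockdown replicate 2 (adjusted p = 0.060 and 0.0566). Asns was lower in Bcl6b knockdown (-0.16 ± 0.039, adjusted p = 0.0236), with 1651 to 1774 against 1795 to 1949. It was not called with all 16 arrays (-0.0119), with the mean over probe sets or with only the 2 groups (adjusted p = 0.953, 0.113 and 0.113). Leaving out Bcl6b knockdown replicate 3 or 4 or Pou3f1 knockdown replicate 1 or 2 also ended it, with adjusted p of 0.0689 to 0.123. Neither gene's arrays overlapped, as for 16.3% of all genes. For Ern1, Pdia6 and Psat1, called in every knockdown against the shared control, no difference between knockdowns was called. The 7 stress regulators were all higher in Etv5 than in Bcl6b knockdown, with a median difference of 0.17, but none of them was called, and the median over all genes was 0.0162.

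Other genes of these pathways came from textbook lists. Of 36 other ER genes, none rose and 1 fell in Etv5 knockdown, 2.78% beside 4.94% of all genes called lower. In Bcl6b knockdown 6 fell, 16.7% beside 6.87%. In Pou3f1 knockdown limma called none, and 6 had an unadjusted p under 0.05, 16.7% beside 26.8% of all genes. Wfs1, the ER membrane protein wolframin, fell by 29% in Bcl6b knockdown (-0.49 ± 0.0701, adjusted p = 0.000166), with 285.1 to 349.5 against 420.4 to 463.2 in control. Sec63, of the translocation channel, Spcs2, of signal peptidase, and Ssr1, of the translocon, fell there by log2 differences of -0.17, -0.16 and -0.14 (adjusted p = 0.00929, 0.0129 and 0.0182). The calls of Sec63 and Spcs2 were lost with the mean over probe sets (-0.0529 and -0.0842, adjusted p = 0.344 and 0.0977), and those of Spcs2 and Ssr1 without Bcl6b knockdown replicate 2 (adjusted p = 0.0983 and 0.134). Spcs3, also of signal peptidase, had -0.14 in Etv5 knockdown (adjusted p = 0.0226), a call that ended when control replicate 1 or 4 or Etv5 knockdown replicate 2 or 3 was left out (adjusted p = 0.0513 to 0.0717).

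Of 31 other amino acid response genes, 2 fell in Etv5, 6 in Bcl6b and 5 in Pou3f1 knockdown, and none rose. These shares, 6.45%, 19.4% and 16.1%, stand beside 4.94%, 6.87% and 7.08% of all genes called lower. Aars, which charges alanine to its tRNA, fell in all 3 knockdowns, with -0.17, -0.23 and -0.17 (adjusted p = 0.0194, 0.0047 and 0.0188). Wars, the tryptophan enzyme, had -0.25 in Bcl6b and -0.26 in Pou3f1 knockdown (adjusted p = 0.00696 and 0.00244). Got1, the cytosolic aspartate aminotransferase, fell by 16.4% in Bcl6b knockdown and fell by 32.8% in Pou3f1 knockdown (-0.57 ± 0.0484, adjusted p = 4.43e-07). Its arrays were 824.1 to 882.7 in control and 543.3 to 628.2 in Pou3f1 knockdown. Nupr1, a stress-induced chromatin protein, fell in Bcl6b knockdown (-0.18), and Jdp2, a relative of Atf3, in Etv5 knockdown (-0.29). Iars, the isoleucine enzyme, fell in Bcl6b and in Pou3f1 knockdown (-0.13 in each). The calls of Aars in Etv5 and Pou3f1 knockdown and those of Nupr1 and Iars were each lost when any 1 of at least 3 arrays was left out.

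Of 7 genes for eIF2 alpha kinases and their regulators, Impact changed in Bcl6b and Eif2ak2 in Pou3f1 knockdown. With 1 of 7, 14.3%, beside 10.9% and 11.4% of all genes, these shares are near the background. In Etv5 knockdown limma called none, and none had an unadjusted p under 0.05. Impact encodes an inhibitor of GCN2, the kinase that senses amino acid shortage upstream of ATF4. It fell by 32.6% in Bcl6b knockdown (-0.57 ± 0.0503, adjusted p = 1.13e-06), with 1974 to 2277 against 2994 to 3231 in control. With the mean over probe sets it had -0.11 and was not called (adjusted p = 0.0905). Eif2ak2, the interferon-inducible kinase PKR, fell by 25.2% in Pou3f1 knockdown (-0.42 ± 0.0985, adjusted p = 0.00949). Of 23 cytosolic and mitochondrial heat shock genes, 1, 3 and 2 fell in Etv5, Bcl6b and Pou3f1 knockdown, which is 4.35%, 13% and 8.7% beside 4.94%, 6.87% and 7.08% of all genes called lower. Hspd1, the mitochondrial chaperonin, was among them in each (-0.10, -0.15 and -0.11). Its calls in Etv5 and Pou3f1 knockdown were lost with median centring (adjusted p = 0.0886 and 0.0882).

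Markers of other cell types that such cultures can hold were also measured, and single markers differed between groups. All 18 fibroblast and feeder markers were bright enough to test. They include Thy1, for which the germ cells were enriched, so that Thy1 does not mark other cells alone. The median difference of the 18 was 0.0148 in Etv5, -0.0407 in Bcl6b and -0.0409 in Pou3f1 knockdown. In the same order 6, 12 and 11 of them lay below 0. Of these markers 3 rose in Etv5 knockdown, 2 rose and 2 fell in Bcl6b knockdown, and 2 rose and 4 fell in Pou3f1 knockdown, 16.7%, 22.2% and 33.3% beside 9.52%, 10.9% and 11.4% of all genes. Vim, which encodes vimentin, was 25.5%, 23.9% and 27.8% higher. The summed intensity of all 18 markers was 219575 to 221711 in control. It was 225132 to 236495 in Etv5, 221905 to 226565 in Bcl6b and 220371 to 226180 in Pou3f1 knockdown. In Etv5 and Bcl6b knockdown every array lay above the control range. Without Vim the sum was 186817 to 189305 in control. It was 183457 to 194072 in Etv5, 179082 to 185335 in Bcl6b and 177927 to 185543 in Pou3f1 knockdown, below every control array in the last pair of groups.

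The 11 germ cell markers summed to 39923 to 40431 in control, 38997 to 40703 in Etv5, 39430 to 40232 in Bcl6b and 39892 to 42633 in Pou3f1 knockdown. In Etv5 knockdown Zbtb16 rose and Sall4 fell, in Bcl6b knockdown Ret rose, and in Pou3f1 knockdown Zbtb16 and Ret rose. This is 18.2%, 9.09% and 18.2% of the list, beside 9.52%, 10.9% and 11.4% of all genes. At an unadjusted p under 0.05 by limma it was 8, 4 and 3 markers. These are 72.7%, 36.4% and 27.3%, beside 24.8%, 26.2% and 26.8% of all genes. The 11 leukocyte markers summed to 1089 to 1230 in control and to 1110 to 1179, 1133 to 1207 and 1145 to 1322 in the knockdowns, with Adgre1 dim throughout. Of the 10 tested, Lyz2 and Mrc1 fell in Etv5 knockdown (-1.57 and -1.31, adjusted p = 0.00893 and 0.00016), 20% beside 9.52% of all genes. In Bcl6b and Pou3f1 knockdown limma called none. At an unadjusted p under 0.05 it was 1 and 3, 10% and 30% beside 26.2% and 26.8% of all genes.

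Of the 10 Sertoli and somatic testis markers, which summed to 9961 to 10362 in control and to 10246 to 11020 in the knockdowns, the defining Wt1, Gata4, Amh, Cldn11 and Inha were too dim to test. Among the 5 tested, Clu rose in Etv5 knockdown, Star fell in Bcl6b knockdown, and Clu and Hsd3b1 rose in Pou3f1 knockdown. This is 20%, 20% and 40%, beside 9.52%, 10.9% and 11.4% of all genes. The part of these cells in the members' values was not tested.

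Values on the array left out are set beside those of all genes. On Bcl6b knockdown replicate 1 the mean log2 difference of the 39 members from the control mean was 0.0601, against -0.111 to -0.0588 on the other 3 Bcl6b knockdown arrays. Over all tested genes it was 0.0626, against -0.057 to -0.0209. There 19 members lay above all 15 other arrays, 48.7% beside 42.1% of all genes, and 12 lay below them all, 30.8% beside 26.8%. Phgdh read 13500 on it, against 8246 to 9307 elsewhere, and Psat1 read 3277, against 4664 to 5715. With all 16 arrays the count of members called went to 0 in Etv5, 1 in Bcl6b and 0 in Pou3f1 knockdown, the 1 being Ern1. The shared spread grew with that array: the median residual SD over all genes was 0.134 with it and 0.0841 without it.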

How the data were processed

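RNA from 16 samples was hybridised to Affymetrix Mouse 430 2.0 arrays after oligo(dT)-primed cDNA synthesis, per the labels' protocols. The authors deposited 1 linear intensity for each probe set and array, between 1.66 and 71511. Software named in the submitters' processing notes, without roles, was Affymetrix Expression Console 1.1, Partek 6.4, MAS5 and GCRMA. Which of them gave the intensities, and the normalization between arrays, are not given in the sources used here. Of 45037 probe sets other than controls, 34945 had 1 gene in the platform annotation, 932 had several and 9160 had none in the table used.

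The probe set brightest on average over 16 arrays, on the log2(intensity + 1) scale, stood for its gene, and a gene was tested where it exceeded the array median on at least 4 arrays. All 4 groups were fitted together on 15 arrays with limma 3.58.1 in R 4.3.3 (lmFit, eBayes with an intensity trend), two-sided, with Benjamini-Hochberg adjustment over 11145 genes. The procedure was tested on simulated data in which 200 of 11145 genes were changed. Of log2 changes of 0.2 it called 36.2% in Etv5, 30.8% in Bcl6b and 36.2% in Pou3f1 knockdown. Of changes of 0.5 it called 88%, 85.8% and 87.4%. Simulated noise was normal and independent between genes, and in the data 9.52% to 11.4% of all genes were called against control. These rates are thus not the sensitivity of the tests here. A missing call alone does not show that a gene was unchanged. The members, the lists and the array left out were chosen with earlier results of these data known. All members are named, with full statistics for those called. Of the other lists, up to 4 called genes per comparison were named by smallest p. No pairing by replicate number is stated, and the main fit used none. Of 21 same-numbered pairs 3 correlated above 0.1 (median r 0.0487, highest 0.325). A pair with different numbers reached 0.303. In groups this small such correlations cannot exclude a pairing. No pair of arrays held identical values. Promoter windows came from RefSeq, GRCm38.p6, and no protein sequences were used here. Alternatives were all 16 arrays, median centring, quantile normalization, a pseudocount of 16, other filters, the mean over probe sets, array weights, no intensity trend, the groups compared alone, a replicate block and the removal of single arrays. Plots used matplotlib 3.10.9 (Python 3.11.15).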

Additional observations from a re-analysis of the deposited data

Results flagged for a closer look

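Among 117 groups of 4 arrays, 1 for each tested member in control, Etv5 knockdown and Pou3f1 knockdown, 6 held an array far from the other 3 by Dixon's criterion, where chance marks about 1 group in 20. Bcl6b knockdown, with 3 arrays, was not looked at in this way. Of the 6, 3 were on Pou3f1 knockdown replicate 4: Hsp90b1 was high there at 28470, P4hb was low at 9275 and Creld2 was low at 3307. Pdia4 was high on Pou3f1 knockdown replicate 1 at 205. Dnajb11 was low on Etv5 knockdown replicate 2 at 1471, and Eif2ak3 was low on Etv5 knockdown replicate 4 at 930.2. None of these 6 genes was called in the comparison that used the array.

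Between knockdowns, 3 members differed by limma's test of the difference itself. Ddit3 was higher in Etv5 than in Pou3f1 knockdown by 0.2057 on the log2 scale, Syvn1 was higher in Bcl6b than in Pou3f1 knockdown by 0.2401, and Asns differed between Bcl6b and Pou3f1 knockdown by -0.1559. On the array that no comparison used, Bcl6b knockdown replicate 1, 19 members were brighter than on any of the other 15 arrays, 48.7% beside 42.1% of all tested genes.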

How the results depend on the processing

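Over 3042 checks of single members under other settings, 2930 kept the side of the threshold, 81 lost the call, 29 gained one and 2 reversed. A change of sign between uncalled values was counted as kept. Most checks were of members not called in the main fit, which had no call to lose. Both reversals came from using all 16 arrays, with Asns at 0.00492 and Phgdh at 0.060 in Bcl6b knockdown. There, of the genes outside the members, Sec63 reversed to 0.0623 with all 16 arrays and Edem3 to 0.235 with the mean over probe sets. The number of members called in Etv5 knockdown (5) was 0 with all 16 arrays, 3 with median centring, 1 with the mean over probe sets and 8 with array weights. In Bcl6b knockdown (7) it was 1 with all 16 arrays, 13 with median centring, 12 with array weights and 11 with only the 2 groups compared. In Pou3f1 knockdown (5) it was 0 with all 16 arrays and 1 with the mean over probe sets. Between Etv5 and Bcl6b knockdown (0) it was 4 with median centring, 2 with the mean over probe sets and 4 with array weights. Between Etv5 and Pou3f1 knockdown (1) it was 0 with all 16 arrays, 2 with array weights and 0 with only the 2 groups compared. Between Bcl6b and Pou3f1 knockdown (2) it was 1 with all 16 arrays, 5 with median centring and 1 with the mean over probe sets. The median of the chaperone and ERAD genes in Bcl6b knockdown went to -0.121 with median centring, and that of the ATF4 targets to -0.0572 with all 16 arrays and -0.189 with median centring. Median centring moved the median of all genes there to -0.119, and the split of calls over all genes from 454 higher and 766 lower to 285 and 2682. Apart from these shifts in scale and spread, the cause was not tested.

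With each array left out in turn the counts ranged from 1 to 5 in Etv5, 2 to 9 in Bcl6b and 3 to 6 in Pou3f1 knockdown, and from 0 to 1, 1 to 2 and 1 to 3 between knockdowns in the order above. The medians of chaperone and ERAD genes ranged from -0.0709 to -0.0519, -0.0801 to -0.0242 and -0.0517 to -0.0224, and those of ATF4 targets from -0.0523 to -0.0236, -0.119 to -0.0998 and -0.088 to -0.0409. With the replicate number as a block, though the numbers share no stated pairing, 4, 6 and 5 members were called against control and 0, 1 and 2 between knockdowns. Among the members it ended the calls of Pdia6 in Etv5 knockdown (adjusted p = 0.0549) and Phgdh in Bcl6b knockdown (adjusted p = 0.0915).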
